A study of Mus musculus with 4 samples.

Results

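The 8 genes described here, H2-T10, H2-T22, H2-T23, H2-Q4, H2-Q6, H2-Q7, H2-M2 and H2-M3, encode mouse nonclassical MHC class I heavy chains and were taken by symbol from the 22620 genes of the series; all 8 were found. The series holds single-cell RNA of leukocytes enriched with CD45 beads from MC38 tumours, a mouse colon carcinoma line grown in wild-type hosts (WT, 2 libraries) or in Park2-/- hosts (KO, 2 libraries). The hosts were the knockouts, and every library came from the same tumour line. The strain, sex and age of the hosts, the design of the Park2 allele and whether animals were pooled are not given in the sources used here. As a result, p-values cover no more than how far the libraries differ, and part of that can be technical. The series title names macrophages and antigen presentation as its subject, and the question for these genes is whether their transcripts differ between KO and WT in macrophages and in the other cell types of the tumour.

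Class I molecules pair a heavy chain with beta-2 microglobulin. The classical chains, H2-K1 and H2-D1, show many peptides to CD8 T cells, whereas nonclassical chains vary little between individuals and mostly serve narrower receptors. H2-T23 encodes Qa-1, which carries leader peptides of other class I chains to the CD94 and NKG2 receptors of NK and CD8 T cells. H2-T10 and H2-T22 encode near-identical chains bound by a subset of gamma delta T cells. H2-Q6 and H2-Q7 belong to the group that encodes Qa-2, H2-Q4 encodes Qb-1, and H2-M3 presents formylated peptides such as those of bacteria and mitochondria. H2-M2 is less studied. Interferon is a known inducer of class I genes, through promoter elements that interferon regulatory factors and NF-kappaB can bind.

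All 8 genes lie on chromosome 17 (GRCm38, the build named for the files). H2-Q4 occupies chr17:35379617-35385290 on the plus strand, H2-Q6 chr17:35424850-35430055 and H2-Q7 chr17:35439155-35443773, both also on the plus strand. H2-T23 (chr17:36029773-36032855), H2-T22 (chr17:36037128-36042747) and H2-T10 (chr17:36115876-36121465) follow on the minus strand. H2-M3 (chr17:37270220-37274484, plus) and H2-M2 (chr17:37480851-37483552, minus) are the most distal. GENCODE vM21 types H2-T10 as a polymorphic pseudogene and the other 7 as protein coding.

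The promoters are shown because most of these genes were higher in KO cells of several types together with the classical chains. RefSeq (GRCm38.p6) gave a promoter for 7 of the 8 members, all but H2-T10. The letters GTTTCNNTT, a form of the interferon-responsive class I element, were searched on both strands in the 250 bases before each start and were found in 6 of these 7, all but H2-T23; they were present in 4.95% of all 32851 RefSeq promoter windows of that length. The letters GGG and TTCCC separated by any 2 bases, a form of the NF-kappaB element, were found in H2-Q4, H2-Q6 and H2-Q7 and in 1.53% of all windows. Capitals mark these letters below, each stretch is written 5′ to 3′ on the strand of its gene, and the classical H2-K1 and H2-D1 are given for comparison. The motifs were chosen after the sequences had been seen, and a match is a description of letters.
H2-T22, chr17:36042917-36042942: ttggcttaGTTTCACTTtcgaatccc
H2-Q4, chr17:35379436-35379480: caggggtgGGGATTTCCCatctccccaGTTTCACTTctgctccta
H2-Q6, chr17:35424669-35424714: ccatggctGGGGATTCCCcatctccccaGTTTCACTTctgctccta
H2-Q7, chr17:35439014-35439058: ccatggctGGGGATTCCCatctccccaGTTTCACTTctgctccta
H2-M2, chr17:37483680-37483705: atcctggaGTTTCCCTTcttttgtaa
H2-M3, chr17:37270124-37270149: cctctgagGTTTCACTTctctgtaac
H2-K1, chr17:34000421-34000466: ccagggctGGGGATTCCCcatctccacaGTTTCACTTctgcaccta
H2-D1, chr17:35262915-35262960: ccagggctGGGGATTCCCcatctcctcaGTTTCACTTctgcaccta

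The members share transcript sequence, so the counts of close pairs are uncertain. Of the distinct 90-base words in the last 500 bases of the GENCODE transcripts, where 3′ reads fall, 13.4% of those of H2-T10 also occurred in another gene, all of them in H2-T22, and 13.2% of those of H2-T22 occurred in H2-T10. For H2-Q6 the share was 26.9%, most of it with H2-Q7, while H2-Q7 shared 3.9% of its own, with H2-Q5. H2-Q4 shared 7.3% and H2-T23 4.4%, and no word of H2-M2 or H2-M3 was shared. Reads that map equally well to several genes are commonly left out of such counts, and the part of this sharing in the results was not tested.

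The libraries held 9239 and 9369 barcodes for WT and 18324 and 10344 for KO, with 94213071 to 130466357 unique molecular identifiers (UMIs, counted molecules) each. Median UMIs per kept cell were 9905.5 and 12133 in WT and 6052 and 8308 in KO. Cells were assigned to types by marker genes, which gave 5636 and 6137 WT macrophages and 9331 and 5107 KO macrophages; 14.0 to 20.1% of cells met no gate, and 22 to 51 barcodes were shared by a pair of libraries. KO is used here as the label gives it, and no transcript-level check of the genotype is reported. Marker checks were weaker for some types: 9 of 10 macrophage markers were highest in the macrophage gate, but only 1 of 7 monocyte markers and 2 of 6 type 2 conventional dendritic cell (cDC) markers were highest in their own gates. Keratin-positive cells were too few to test. A group without Ptprc (CD45) and with collagen or other stromal markers (228 and 258 WT, 58 and 100 KO cells), led by Col3a1, Sparc and Dcn and called stromal-marker cells here, was tested instead; only 2 of its 7 markers were highest in it, and whether it comes from the tumour line or from the host cannot be told from these counts.

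In macrophages, 7 of the 8 genes were higher in KO than in WT, and H2-M2 was not called. Values are counts per 1000000 UMIs of the gated cells (CPM), and changes are log2 KO minus WT ± SE from a quasi-likelihood fit in edgeR, with p-values adjusted by Benjamini-Hochberg over the 12724 genes tested and calls at an adjusted p under 0.05. Of all genes tested in macrophages, 5.15% were called higher in KO. The median log2 change of the 8 was 1.84, against -0.02 over all genes tested. All 8 had both KO libraries above both WT libraries, which held for 16.2% of all genes.

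The Qa-1 gene H2-T23 gave 123 and 156 CPM in the WT and 309 and 307 CPM in the KO libraries. The KO libraries were nearly equal and lay above both WT libraries, with a change of 1.26 ± 0.14 (adjusted p = 0.00627). H2-Q4 gave 41.6 and 50.9 CPM in WT and 134 and 107 CPM in KO (change 1.5 ± 0.16, adjusted p = 0.00685). The ratios of the KO to the WT mean were 2.21 for H2-T23 and 2.61 for H2-Q4, and both stayed called in each of the alternative settings run, where the change of H2-T23 was smallest with clusters weighted equally (0.73).

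H2-Q7, a Qa-2 gene, gave 46.3 and 77.6 CPM in WT and 360 and 228 CPM in KO, a change of 2.36 ± 0.38 (adjusted p = 0.0439). H2-Q6 followed the same order, with 14.0 and 24.3 CPM in WT and 91.7 and 69.2 CPM in KO (2.19 ± 0.34, adjusted p = 0.0364). KO replicate 1 was the highest library for both genes, by 1.58 times over KO replicate 2 for H2-Q7. Both calls were lost when a KO library was left out: leaving out KO replicate 1 or KO replicate 2 gave adjusted p = 0.501 and 0.310 for H2-Q6 and 0.447 and 0.242 for H2-Q7, and H2-Q7 was also lost without WT replicate 1 (0.209) or WT replicate 2 (0.112). H2-Q6 stayed called without WT replicate 1 (0.0136) or WT replicate 2 (0.00305). With the replicate number as a block the edgeR adjusted p was 0.0506 for H2-Q6 and 0.0554 for H2-Q7, with no filter on low counts it was 0.138 and 0.165, with cells of 2 lineages kept 0.0546 and 0.0696, and with cycling cells left out 0.0662 and 0.0584. H2-Q7 also missed the threshold with cells thinned to 2000 UMIs (0.0946), clusters in place of gates (0.0509) and clusters weighted equally (0.0602).

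H2-T10 had the largest change of the called members. It gave 3.0 and 4.41 CPM in WT and 34.4 and 19.1 CPM in KO, from 207 and 380 UMIs against 3226 and 1448 UMIs, a ratio of means of 7.21 and a change of 2.96 ± 0.39 (adjusted p = 0.0257). The lowest KO library was more than 4 times the highest WT library. The call was lost without WT replicate 1 (adjusted p = 0.275) or WT replicate 2 (0.193), with changes of 2.69 and 3.32, and with no filter on low counts (0.113). Its close copy H2-T22 moved less: 44.9 and 56.1 CPM in WT and 73.0 and 81.5 CPM in KO (0.73 ± 0.14, adjusted p = 0.0264).

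H2-M3 gave 38.1 and 49.0 CPM in WT and 63.9 and 67.3 CPM in KO, a change of 0.71 ± 0.14 (adjusted p = 0.0314), which fell to 0.38 with clusters weighted equally (limma, adjusted p = 0.205); with cells of 2 lineages kept the adjusted p was 0.0572. H2-M2 gave 0.46 and 1.66 CPM in WT and 4.29 and 12.2 CPM in KO (3.03 ± 0.89, adjusted p = 0.152). Its libraries did not overlap between groups but differed severalfold within each group. It passed the threshold in 3 of 17 alternatives, with DESeq2 (adjusted p = 0.0377), the replicate block (0.0362) and cells thinned to 2000 UMIs (0.0332), and missed it in the others, at adjusted p up to 0.566. Leaving out a library moved its change from 2.1 (without KO replicate 2) to 4.31 (without WT replicate 2).

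**Figure D1:**
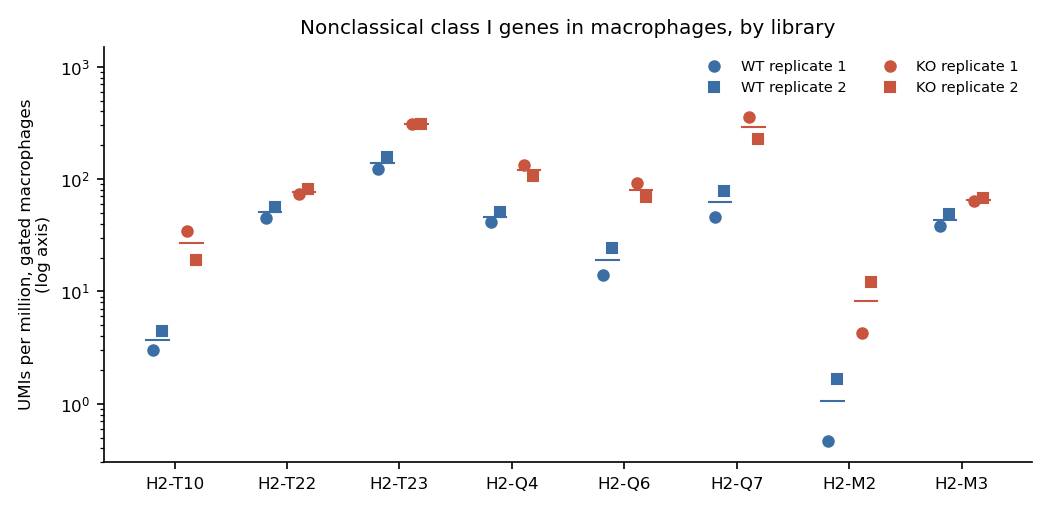
CPM in gated macrophages (y axis, log scale) for each of the 8 genes (x axis); circles are replicate 1, squares replicate 2, blue WT, red KO, and short lines are group means. Both KO points lie above both WT points for every gene, with the widest gaps for H2-T10, H2-Q6 and H2-Q7 among the called genes.

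RNA of other cells moved with genotype in the macrophage sums. The summed level of 8 T cell markers was 1.85 and 4.52 CPM in WT and 24.3 and 16.99 CPM in KO macrophages, with none of the 8 at 0. This was 0.0362 to 0.376% of the level in CD8 T cells of the same library. In those CD8 T cells H2-T10 stood at 141 and 83.7 CPM and H2-Q7 at 1287 and 1058 CPM in KO. Summed NK cell markers were 2.89 and 4.02 CPM in WT and 8.04 and 7.57 CPM in KO macrophages, those of migratory dendritic cells 9.73 and 7.95 against 14.4 and 10.6 CPM, and those of neutrophils 47.6 and 57.9 against 80.6 and 58.8 CPM. Summed B cell markers were 13.9 and 16.8 CPM in WT and 11.2 and 8.43 CPM in KO, and stromal markers overlapped between the groups. The part of this RNA in the members' changes was not tested.

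The macrophages of the WT and KO libraries fell mostly into different clusters. Genes of the MHC, the interferon response, the cell cycle, the sex chromosomes, mitochondria and ribosomes were left out of the clustering, and 14 of the 24 clusters held at least 20 gated macrophages in each library. Cluster 10, led by Fcrls, Cbr2 and Ccl12, held 25.6 and 19.7% of WT but 3.58 and 5.23% of KO macrophages, and cluster 2, led by Ccr2, Chil3 and Cdh1, held 23.4 and 25.2% of WT but 5.19 and 9.24% of KO. Cluster 7, led by Pf4, Ccl7 and Ppbp, held 6.35 and 8.99% of WT and 26.2 and 27.1% of KO macrophages, and cluster 9, led by C3, Saa3 and Calhm6, held 1.15 and 1.25% of WT and 21.4 and 9.24% of KO. Cluster 2 has 2 monocyte markers among its top 10 genes, so the values were also read cluster by cluster and by number. Of the clusters named as macrophages, only cluster 9 has a macrophage marker among its top 10 genes. Some of the 14 clusters were named otherwise, although the cells read in them passed the macrophage gate. Cluster 0 was named type 2 cDC, cluster 5 monocyte and cluster 14 fibroblast, the last with 47 and 41 WT and 23 and 22 KO cells. Clusters 6 and 12 were unnamed, with median UMIs of 0.117 and 0.181 of the library median.

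Within clusters, H2-T10, H2-T23, H2-Q4, H2-Q6 and H2-Q7 each had both KO libraries above both WT libraries in 14 of 14 clusters. H2-T22 did so in 10, H2-M3 in 9 and H2-M2 in 6 of the 14, and none of the 8 had KO below WT in any. Over all gene and cluster pairs, 18.1% had KO above WT in this sense. The clusters come from the same libraries, so they do not repeat the comparison. In cluster 2, H2-T10 was 1.89 and 4.31 CPM in WT and 26.7 and 14.7 CPM in KO. In cluster 7 it was 2.41 and 1.81 CPM in WT and 29.6 and 17.3 CPM in KO. The level of H2-T10 was thus low in WT and higher in KO in clusters common to either genotype. H2-T23 varied between clusters in both genotypes: in cluster 9 it was 352 and 336 CPM in WT and 520 and 563 CPM in KO, above the 105 and 137 CPM in WT and 277 and 295 CPM in KO of cluster 10. Giving every cluster the same weight, those not named as macrophages included, left H2-T10, H2-T22, H2-T23, H2-Q4 and H2-Q6 called. This used limma on log2(mean CPM + 1) and gave adjusted p = 0.0602 for H2-Q7 and 0.205 for H2-M3.

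H2-M2 was concentrated in few clusters. It was the gene with the highest fold in cluster 4, ahead of Nos2 and Upp1, a cluster of 24 and 83 WT and 768 and 442 KO macrophages. There it gave 30.6 and 5.43 CPM in WT and 8.22 and 66.4 CPM in KO, and the groups overlapped. In cluster 9 it gave 9.10 and 11.2 CPM in WT and 15.2 and 49.8 CPM in KO, and in cluster 6, an unnamed cluster led by Mcpt4, it gave 0 and 3.61 CPM in WT and 7.55 and 55.9 CPM in KO. In clusters 2 and 10 no library exceeded 1.90 CPM. KO replicate 2 was above KO replicate 1 in clusters 4, 6 and 9.

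**Figure D2:**
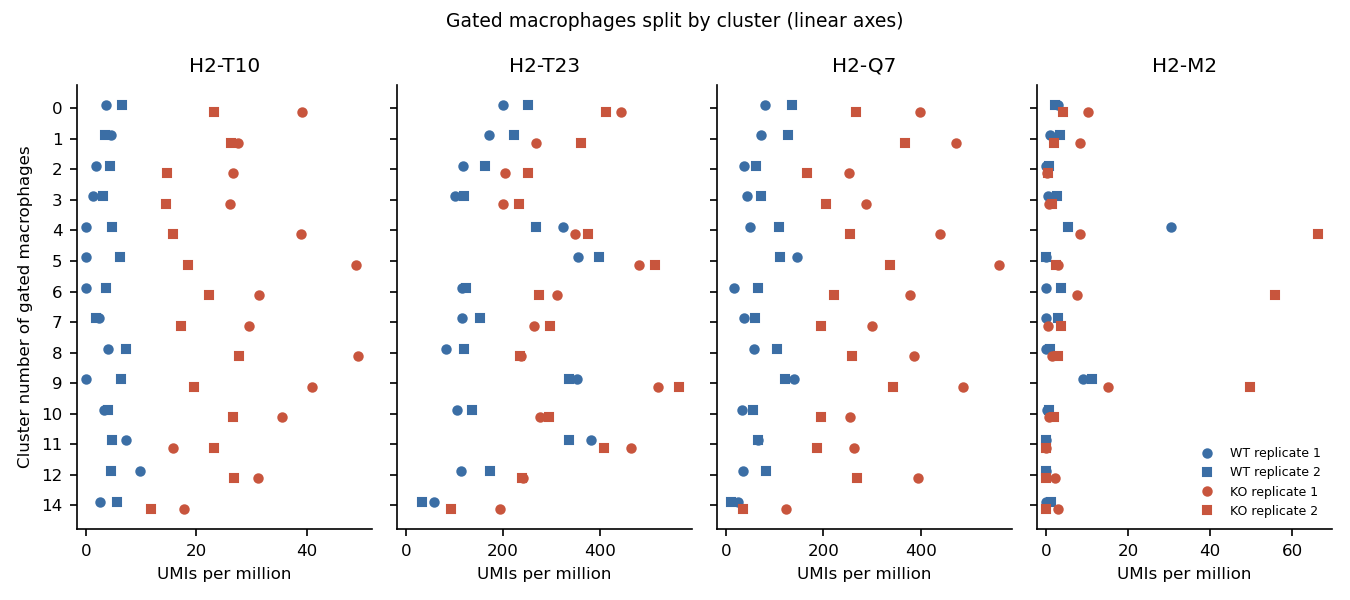
CPM (x axes, linear, 1 scale per gene) of H2-T10, H2-T23, H2-Q7 and H2-M2 in the gated macrophages of 14 clusters (y axis, cluster number); circles are replicate 1, squares replicate 2, blue WT, red KO. For H2-T10, H2-T23 and H2-Q7 red points lie to the right of blue points in all 14 clusters, and for H2-M2 in 6.

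The ratio of H2-T10 to H2-T22 UMIs was followed because the pair shares sequence and moved by different amounts. In macrophages it was 0.0667 and 0.0787 in WT and 0.471 and 0.234 in KO. For groups of 2 libraries the smallest p of an exact two-sided permutation test is 0.333, which this difference gave. In CD8 T cells the ratio was 0.138 and 0.105 in WT and 0.850 and 0.439 in KO, and in regulatory T cells it was 0.114 and 0.129 in WT and 0.582 and 0.355 in KO. Monocytes, CD4 T cells, migratory dendritic cells (DCs) and type 2 cDCs also had both KO libraries above both WT libraries. KO replicate 1 had the higher ratio of the KO libraries in 6 of these 7 types. The migratory DCs and type 2 cDCs rest on 2 to 11 H2-T10 UMIs a library. The WT libraries also held few H2-T10 UMIs in CD4 T cells (3 and 7), CD8 T cells (4 and 8) and monocytes (7 and 11).

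Stromal-marker cells differed from this pattern in their values. Their ratio was 0.0518 and 0.0748 in WT and 0.0631 and 0.0663 in KO, so the groups overlapped, although H2-T10 and H2-T22 each rose there by 1.78 ± 0.40 and 1.77 ± 0.14. The KO effect on H2-T22 was larger in stromal-marker cells than in macrophages by 0.97 ± 0.15 (edgeR interaction, adjusted p = 0.00479, and 0.0235 with the newer method described below). The KO effect on H2-T10 was smaller there by 1.10 ± 0.38 without passing the threshold (adjusted p = 0.214). The difference in the ratio between cell types was not itself tested.

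**Figure D3:**
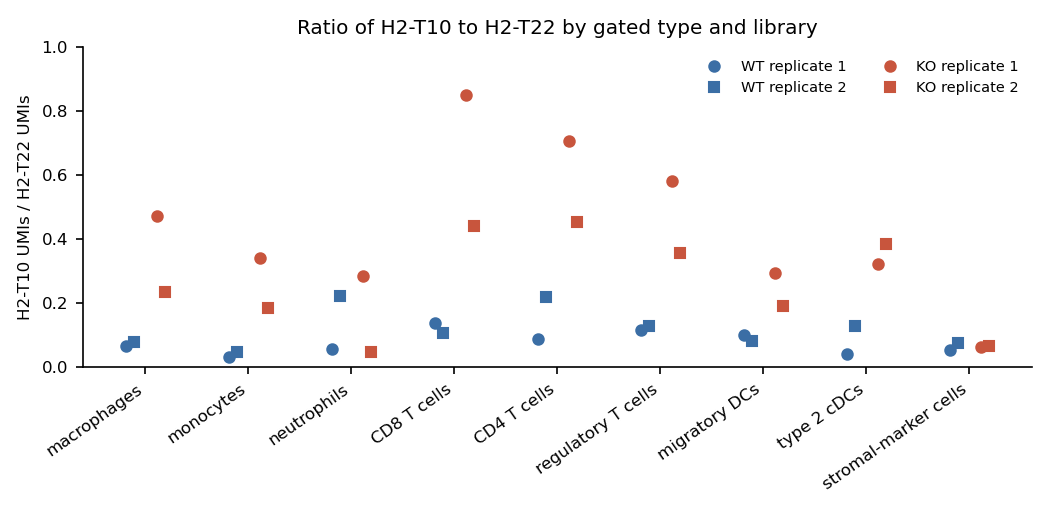
H2-T10 UMIs divided by H2-T22 UMIs (y axis) in 9 gated types (x axis); circles are replicate 1, squares replicate 2, blue WT, red KO. Red points stand above blue points in 7 types; in neutrophils (1 to 14 H2-T10 UMIs a library) and stromal-marker cells they overlap.

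Outside macrophages the genes were tested in 8 types with at least 20 cells in every library. Of 64 member and type pairs, 55 passed the filter on low counts, 14 were called higher in KO and none lower, where 1.53% of all tested gene and type pairs in these types were called higher. In 41 of the 64 pairs both KO libraries lay above both WT libraries, and in 1, H2-T22 in CD4 T cells, both lay below; 18.6% of all tested pairs had KO above WT. Of the 14 calls, 8 held with each library left out in turn.

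The stromal-marker cells had the most calls, with 6 of 7 tested members higher in KO (1.54% of all genes there). H2-T23 gave 27.2 and 28.8 CPM in WT and 103 and 106 CPM in KO, a change of 1.95 ± 0.15 (edgeR, adjusted p = 1.36e-06). H2-T22 gave 40.4 and 44.0 CPM in WT and 135 and 142 CPM in KO (1.77 ± 0.14, adjusted p = 1.84e-06), a call lost with cells thinned to 2000 UMIs (1.38, 0.122). Libraries of a group agreed closely for both genes, and the KO libraries were more than 3 times the WT libraries. H2-Q4 gave 68.4 and 70.7 CPM in WT and 146 and 157 CPM in KO (1.18 ± 0.13, adjusted p = 4.89e-05), and H2-Q7 gave 2.90 and 1.65 CPM in WT and 21.6 and 16.2 CPM in KO (3.09 ± 0.37, adjusted p = 0.000128). H2-Q6 and H2-T10 were called too, with adjusted p = 0.0384 and 0.0329. Leaving out any library but WT replicate 2 raised the adjusted p of H2-T10 to between 0.106 and 0.274, and leaving out any library raised that of H2-Q6 to between 0.161 and 0.530; H2-Q6 also missed the threshold with the newer edgeR method (0.0520), and both missed it with DESeq2 (0.399 for H2-T10 and 0.516 for H2-Q6). H2-M3 gave 23.5 and 28.5 CPM in WT and 34.1 and 41.9 CPM in KO without passing the threshold (adjusted p = 0.130).

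In monocytes, 2 of 7 tested members were called higher (3.42% of all genes there). H2-T10 gave 2.40 and 5.30 CPM in WT and 38.6 and 22.1 CPM in KO (3.17 ± 0.51, edgeR adjusted p = 0.0307). H2-T23 gave 348 and 376 CPM in WT and 480 and 476 CPM in KO (0.50 ± 0.11, adjusted p = 0.0247). H2-Q4, H2-Q6 and H2-Q7 had changes of 1.06, 2.03 and 2.09 with adjusted p = 0.0798, 0.0666 and 0.117, and all 8 members had both KO libraries above both WT libraries, which held for 16.2% of all genes tested in monocytes. The H2-T10 call was lost without WT replicate 1 (adjusted p = 0.371) or WT replicate 2 (0.139), and it was just missed with cells of 2 lineages kept (0.0539) and with clusters in place of gates (0.0528). The H2-T23 call was lost without WT replicate 1 (0.127) or KO replicate 1 (0.104), with clusters in place of gates (change 0.22, adjusted p = 0.371) and with cells thinned to 2000 UMIs (0.31, 0.339).

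In neutrophils, H2-Q4 and H2-Q7 were called among 5 tested members (1.22% of all genes there). H2-Q4 gave 78.6 and 68.5 CPM in WT and 240 and 253 CPM in KO (1.72 ± 0.30, edgeR adjusted p = 0.0251). H2-Q7 gave 56.6 and 68.5 CPM in WT and 213 and 174 CPM in KO (1.68 ± 0.33, adjusted p = 0.0304). With the replicate block both fell short of the threshold, at adjusted p = 0.0819 and 0.0952, as did H2-Q7 with DESeq2 (0.107). H2-T10 rested on 1 to 14 UMIs a library here and was not tested.

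In migratory DCs, which carry antigen from tissue to lymph nodes, H2-Q7 and H2-M2 were called among 8 tested members (2.18% of all genes there). H2-M2 gave 47.1 and 18.2 CPM in WT and 91.0 and 86.7 CPM in KO, from 13 to 49 UMIs a library (1.45 ± 0.33, edgeR adjusted p = 0.0150). Without WT replicate 2, its lowest library, the change was 0.96 and the adjusted p 0.132, and without WT replicate 1 the change was 2.22. H2-Q7 gave 539 and 492 CPM in WT and 953 and 826 CPM in KO (0.79 ± 0.15, adjusted p = 0.00441). With cells thinned to 2000 UMIs neither passed, at adjusted p = 0.0951 for H2-M2 and 0.0506 for H2-Q7. No member was called in type 2 cDCs (0 of 7, 1.39% of all genes higher), where H2-T10 gave 3.11 and 10.9 CPM in WT and 29.3 and 31.0 CPM in KO from 2 to 9 UMIs (2.06 ± 0.77, adjusted p = 0.268; unadjusted p = 0.0170), and H2-Q7 had an unadjusted p of 0.0167.

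In T cells the call was confined to H2-T10 among the members tested. In CD8 T cells it gave 29.6 and 13.9 CPM in WT, from only 4 and 8 UMIs, and 141 and 83.7 CPM in KO, from 543 and 181 UMIs (2.81 ± 0.49, edgeR adjusted p = 0.0420; 0.548% of all genes were called higher). In regulatory T cells it gave 27.4 and 23.1 CPM in WT and 132 and 96.1 CPM in KO (2.18 ± 0.30, adjusted p = 0.00322; 0.262% of all genes). In CD4 T cells it gave 21.7 and 42.2 CPM in WT, from 3 and 7 UMIs, and 133 and 81.5 CPM in KO. It did not pass there (1.78 ± 0.48, edgeR adjusted p = 0.124, with 0.132% of all genes called higher). In all 3 T cell types KO replicate 1 was highest and KO replicate 2 next, while the order of the WT libraries differed. The CD8 T call was lost without WT replicate 1 (0.293), without WT replicate 2 (0.584), with total UMIs (0.0565) and with the newer edgeR method (0.102), while the regulatory T call held without any single library. H2-Q7 had KO above WT in all 3, for example 1243 and 1007 CPM against 1987 and 1744 CPM in regulatory T cells (adjusted p = 0.0989), and H2-T22 and H2-T23 overlapped between groups in CD8 and regulatory T cells. No member was called in CD4 T cells with edgeR, where H2-T10, H2-Q6 and H2-Q7 had unadjusted p of 0.000781, 0.0301 and 0.000664.

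**Figure D4:**
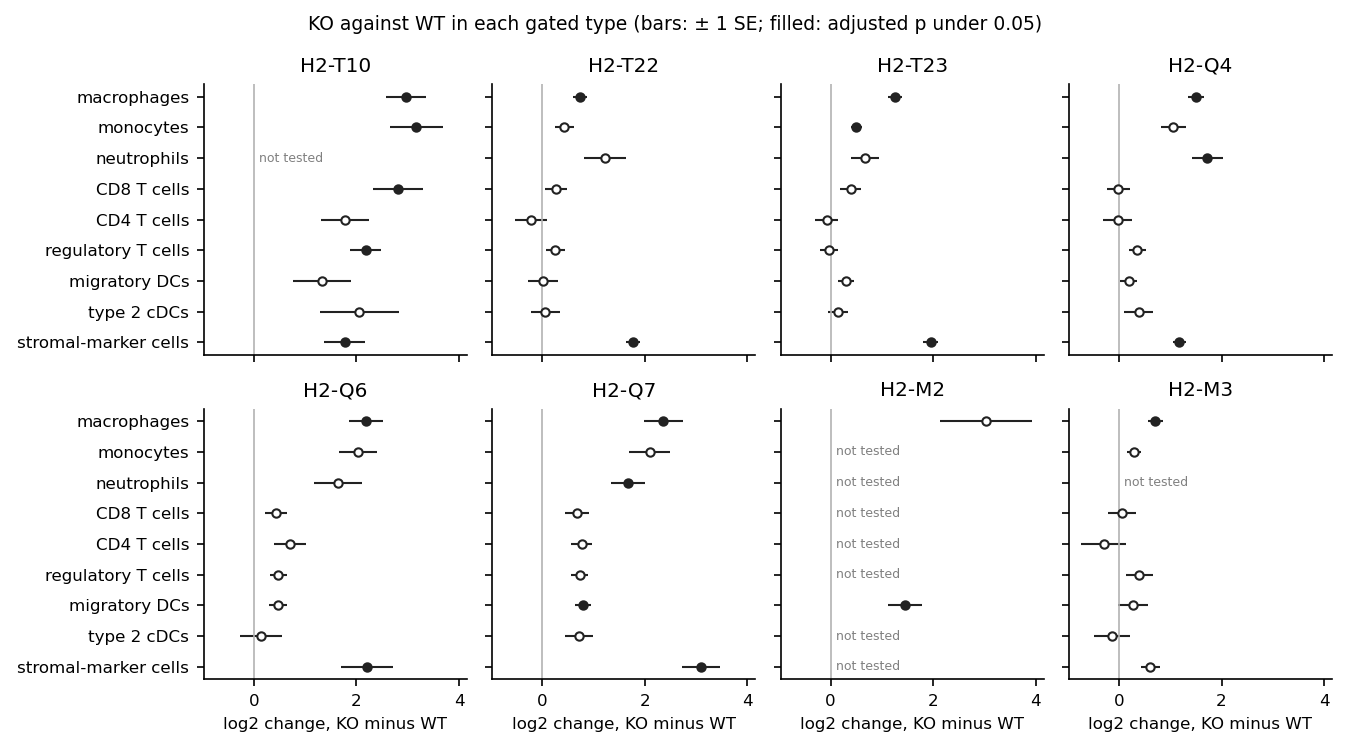
Log2 change, KO minus WT, with ± 1 SE (x axes) of each of the 8 genes in 9 gated types (y axis); filled points have an adjusted p under 0.05. H2-T10 lies between 1.33 and 3.17 in the 8 types tested, while H2-T22, H2-T23 and H2-Q4 lie between -0.22 and 0.39 in the 3 T cell types.

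How far the KO effect differed between macrophages and the other types was tested in a fit of each type with the macrophages of the same libraries, and the number of calls depended on the method. With the quasi-likelihood method that edgeR applies by default here, 21 of 64 member effects were smaller than in macrophages and 1 was larger, while 0.72% and 0.456% of all gene and type pairs were called smaller and larger. With the newer quasi-likelihood method of the same tool, an alternative added after the data had been seen, 8 of the 22 remained. In 6 of the 8 types the default fit placed no limit on how far it trusted the spread shared by all genes. In simulated CD8 T cells and macrophages 8.7 to 33.3% of its calls were false, against 0 to 2.6% for the newer method. The newer method recovered fewer true differences, and its 0% rests on a simulation in which it made only 1 call. The 8 that passed both methods are therefore given as differences, and the rest as values.

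The 8 differences fell on 5 genes. H2-T23 had a smaller KO effect in monocytes, by -0.76 (adjusted p = 1.02e-05 by the default and 0.00153 by the newer edgeR method), and in regulatory T cells, by -1.32 (4.30e-08 and 0.0378). H2-Q6 had a smaller effect in regulatory T cells (-1.75, newer method adjusted p = 0.0112), migratory DCs (-1.67, 0.0391) and type 2 cDCs (-2.07, 0.0449). H2-Q4 had a smaller effect in regulatory T cells (-1.15, 0.0340) and H2-Q7 in type 2 cDCs (-1.72, 0.0309). H2-T22 had a larger effect in stromal-marker cells (0.97, 0.0235), but not with cells thinned to 2000 UMIs (0.51, edgeR adjusted p = 0.988). Under the default method, those of H2-Q6 and H2-Q7 in type 2 cDCs were lost when a library was left out, and the other 6 were not.

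For H2-T10, H2-M3 and H2-M2 no difference from macrophages passed the threshold in any of the 8 types by the default method. H2-M2 had 0 UMIs in every library of CD4 T cells, CD8 T cells and neutrophils. Its tests there could not find a difference, though they count among the 64. In regulatory T cells and type 2 cDCs its SE was 11.1 and 10.5, too wide to read. For H2-T10 in CD8 T cells the difference was 0.02 ± 0.49, an interval wide enough to hold a change of either sign. H2-Q7 in regulatory T cells (-1.66) and in CD8 T cells (-1.60) had large negative values that did not pass the newer method, at adjusted p = 0.123 and 0.253.

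Among the types tested, the levels of the genes ordered the cell types differently. Types with too few cells to test were left out of this order, and some had higher WT means. NK cells had a WT mean of 38.9 CPM (SD 41.1) for H2-T10, and plasmacytoid DCs had 979 CPM for H2-T23 and 152 CPM for H2-M3. In WT, H2-T10 was highest in CD4 T cells (32.0 ± 14.4 CPM, SD, n = 2), regulatory T cells (25.3 ± 3.03) and CD8 T cells (21.7 ± 11.1), whose ranges overlapped. All other tested types lay below these 3, down to macrophages (3.71 ± 1.00) and stromal-marker cells (2.69 ± 0.85). The WT values of CD4 and CD8 T cells rest on 3 to 8 H2-T10 UMIs a library. In KO the 3 T cell types were again highest for H2-T10, at 107 to 114 CPM, and stromal-marker cells had the lowest mean, at 8.98 ± 0.65 CPM, within the range of neutrophils (7.90 and 26.4 CPM). H2-Q7 had its highest WT mean in regulatory T cells (1125 ± 167 CPM), apart from CD4 T cells (837 ± 119). The WT range of CD8 T cells (579 to 1051 CPM) overlapped that of regulatory T cells (1007 to 1243 CPM). Stromal-marker cells were lowest for H2-Q7 in WT (2.27 ± 0.88). Of the tested types, regulatory and CD4 T cells were highest for H2-T23 (688 ± 142 and 608 ± 60.1 CPM, overlapping), and macrophages (140 ± 23.4) were above only stromal-marker cells (28.0 ± 1.14).

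Among the tested types H2-T22 had the same 3 T cell types first in WT, at 173 to 220 CPM. Macrophages, neutrophils and stromal-marker cells came last with overlapping ranges at 50.5, 48.8 and 42.2 CPM. H2-Q4 was lowest in macrophages in WT (46.3 ± 6.59 CPM). H2-Q6 had its highest WT mean in migratory DCs (272 ± 6.74 CPM). Their range (267 to 276 CPM) overlapped that of CD4 T cells (126 to 268 CPM). Stromal-marker cells were lowest for H2-Q6 (1.24 ± 0.38). H2-M3 ranged over the tested types from 79.6 ± 26.7 CPM in type 2 cDCs to 11.6 ± 3.01 in neutrophils, and its 6 highest tested types overlapped with their neighbours. H2-M2 was highest in migratory DCs (32.7 ± 20.4 CPM), then macrophages (1.06 ± 0.85). H2-M2 had 0 UMIs in CD8 T cells of every library, which allows up to 0.779 CPM in the deepest, KO replicate 1, and 22.2 CPM in the shallowest, WT replicate 1, and covers counting error only.

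Types with too few cells in some library were not tested. WT replicate 2 held 8 plasmacytoid DCs, 17 gamma delta T cells and 13 B cells, and WT replicate 1 held 13 NK cells and 19 type 1 cDCs. In NK cells H2-Q7 gave 867 and 553 CPM in WT and 1317 and 899 CPM in KO, and in plasmacytoid DCs 810 and 501 CPM in WT and 1956 and 1200 CPM in KO. H2-T23 was at 1036 and 921 CPM in WT and 1206 and 1207 CPM in KO plasmacytoid DCs. Both genes had KO above WT in these DCs. Of the 8 members, 5 had both KO libraries above both WT libraries in plasmacytoid DCs, 4 in type 1 cDCs, 3 in NK cells, 1 in gamma delta T cells and none in B cells. The share of all genes in such an order was not computed for these types. It was 18.6% over the tested types other than macrophages, so these counts, and the pairs with KO below WT given next, are values only. In gamma delta T cells, which carry receptors for H2-T10 and H2-T22, H2-T10 gave 2 and 0 UMIs in WT and 20 and 2 UMIs in KO, and the groups overlapped in CPM. There H2-Q4 had both KO libraries below both WT libraries, at 378 and 359 CPM in WT and 331 and 283 CPM in KO, as had H2-M3, at 60.5 and 57.4 CPM in WT and 53.4 and 52.4 CPM in KO.

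The genes that assemble and induce class I moved in the same macrophages. Of 24 partner genes listed, all were tested and 16 were higher in KO, none lower, with a median log2 change of 0.90, beside the 5.15% of all genes called higher and the median of -0.02 given above. The light chain B2m gave 2131 and 2381 CPM in WT and 4592 and 3891 CPM in KO (1.03 ± 0.13, edgeR adjusted p = 0.00835). Both KO libraries were well above both WT libraries. The peptide transporter genes Tap1 and Tap2 rose by 1.29 ± 0.13 and 1.00 ± 0.11, and Tapbp and Tapbpl, which encode the peptide editors tapasin and TAPBPR, by 1.08 ± 0.10 and 1.32 ± 0.15. The immunoproteasome genes Psmb8, Psmb9 and Psmb10 rose by 0.90 to 1.03. The classical chains H2-K1 and H2-D1 each rose by 1.34, from 822 and 989 CPM to 2325 and 1904 CPM for H2-K1.

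Among regulators, the class I transactivator gene Nlrc5 gave 12.4 and 13.5 CPM in WT and 31.2 and 26.6 CPM in KO (1.28 ± 0.12, edgeR adjusted p = 0.00300). Irf1, which encodes an interferon regulatory factor, rose by 1.74 ± 0.13, from 36.6 and 37.9 CPM to 128 and 101 CPM. Its KO libraries were well apart from its WT libraries. Calr, Erap1 and Irf9 rose by 0.45, 0.54 and 0.40; the calls of Calr and Irf9 were lost without WT replicate 1, KO replicate 1 or KO replicate 2, at adjusted p of 0.0516 to 0.113. Pdia3, Canx, Irf2, Stat2, Rfx5, Rfxap, Rfxank and Ciita did not pass. Ciita, the class II transactivator gene, gave 33.1 and 40.7 CPM in WT and 36.9 and 35.1 CPM in KO and overlapped.

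**Figure D5:**
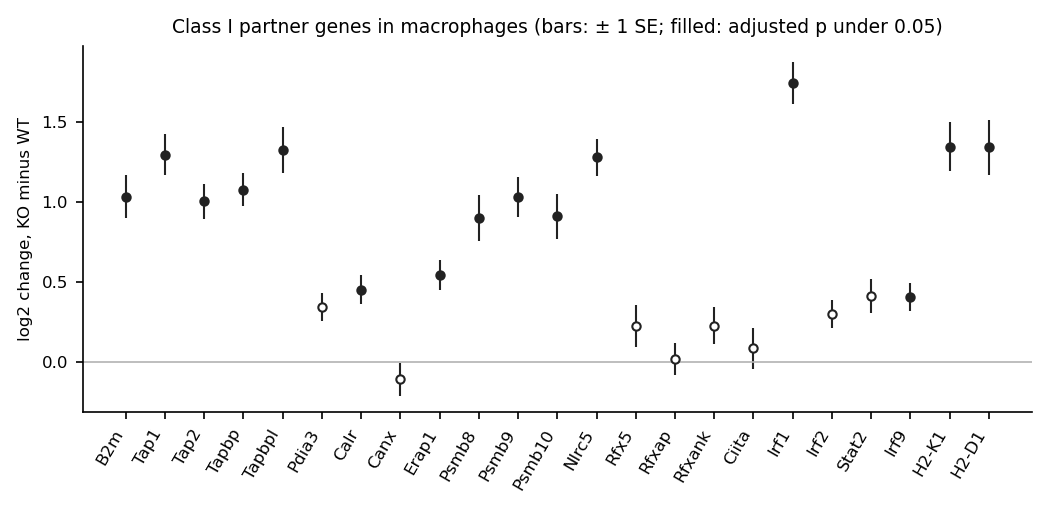
Log2 change, KO minus WT, with ± 1 SE (y axis) of 23 of the class I partner genes (x axis) in gated macrophages; filled points have an adjusted p under 0.05. Irf1 lies highest of those plotted, and the Rfx genes, Ciita and Canx lie near 0.

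In other types the partner list and the members were called together only in part. The partner list held 14 higher of 23 tested in stromal-marker cells, 13 of 24 in monocytes and 5 of 22 in migratory DCs. It held 3 of 19 in neutrophils and 3 of 22 in type 2 cDCs, with none lower in these types. No member was called in type 2 cDCs. In CD8, CD4 and regulatory T cells none of 22, 16 and 23 tested was called by edgeR, while H2-T10 was called in CD8 and regulatory T cells. Tap1 and Irf1 were called in all 5 of the other types that had calls, and in macrophages.

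Other class I-like genes were mostly too low to test: 7 of 16 passed the filter in macrophages. H2-T24 rose from 1.49 and 1.54 CPM to 4.60 and 3.82 CPM (1.59 ± 0.18, edgeR adjusted p = 0.00627), and Cd1d1, which presents lipids to NKT cells, rose from 6.57 and 7.41 CPM to 12.8 and 9.56 CPM (0.80 ± 0.17, adjusted p = 0.0347). Mr1, which presents vitamin B metabolites, gave 11.3 and 9.26 CPM in WT and 10.4 and 10.2 CPM in KO, and Fcgrt, the neonatal Fc receptor gene, gave 143 and 73.4 CPM in WT and 62.3 and 57.8 CPM in KO (adjusted p = 0.250). The lower KO values of Fcgrt rest mainly on WT replicate 1.

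Receptors for these molecules were read in the cells that carry them. In CD8 T cells Klrc1, which encodes NKG2A, gave 200 and 315 CPM in WT and 461 and 573 CPM in KO (0.98 ± 0.22, edgeR adjusted p = 0.0728), and its partner Klrd1, which encodes CD94, gave 496 and 790 CPM in WT and 1051 and 1009 CPM in KO (0.70 ± 0.21, adjusted p = 0.216). Neither passed, and 0 of 10 receptor genes tested there did; 5 had an unadjusted p under 0.05. In macrophages 5 of 10 were called higher, Klrd1, Klrc1, Klrc2, Cd8a and Cd8b1, at levels of 0.70 to 8.79 CPM in KO; the T cell markers given above moved in the same sums. The inhibitory receptor genes of myeloid cells did not pass there: Pirb gave 133 and 125 CPM in WT and 164 and 140 CPM in KO (adjusted p = 0.0761), and Lilrb4a overlapped.

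Position on chromosome 17 was examined because all 8 members lie on it. In macrophages 7.30% of 671 tested genes of chromosome 17 were higher in KO, against 5.03% of 12039 on other chromosomes. Between H2-Q4 and H2-M2, 11 of 43 tested genes were higher, and 4 of 35 (11.4%) when the members were set aside. DNA of another strain carried along with the Park2-/- genotype cannot be told apart from the genotype itself in these libraries. The 5 called genes of the chromosome with the largest changes were Prss41, Lrg1, Sytl3, Clic5 and H2-T10. Of these, Lrg1 was lower, at 6.51 and 2.01 CPM in WT and 0.21 and 0.14 CPM in KO, and Prss41 rests on 0 CPM in WT and about 0.2 CPM in KO.

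H2-T10 was among the genes called in most types. It was higher in 5 of the 8 types in which it was tested, and 17 genes were called in the same direction in at least 5 types. Of these 17 genes, 3 (17.6%) lie on chromosome 17, namely H2-T10, Psmb8 and Tap1. All 3 belong to the members or the partner list, which were chosen with earlier results known, so this share is a description. It was 9.52% of the genes called in at least 4 types, 11.7% in at least 3 and 8.77% in at least 2. The share of chromosome 17 among all 12987 genes tested was 5.24%. The gene called most often was Pf4, a platelet chemokine gene also made by macrophages of cluster 7, in 8 types, followed by Irf1, Zbp1, Igtp, Tap1 and Samhd1 in 6. The 8 types of Pf4 included all 3 T cell types, neutrophils and stromal-marker cells. Macrophage RNA in the sums of the other types was not measured, and its part in the values of Pf4 or of the members there was not tested. Irf1, Zbp1, Igtp, Tap1 and Samhd1 were called in no T cell type, and H2-T10 was called in CD8 and regulatory T cells.

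Across the 36 type and library sums, the members were compared with all genes by the likeness of their levels. The closest gene to H2-Q7 was H2-Q6 (Pearson r of log2(CPM + 1) = 0.98), a pair that shares sequence, and the closest to H2-T23 was H2-Q7 (0.91). H2-K1 was the closest gene to H2-T10 (0.84) and to H2-T22 (0.86). H2-M2 stood apart, closest to Apol7c (0.91), a marker of the migratory DC gate, and its r with the other members lay between -0.19 and 0.30. H2-M3 was closest to Sting1 (0.87). These sums share libraries, and the types differ in depth from 126595 UMIs to 93902608 UMIs, so the coefficients describe these sums only.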

How the data were processed

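Droplet single-cell RNA (10x 3′ v3.1) of 2 WT and 2 KO libraries was analysed. Per the file headers the deposited matrices hold UMI counts from Cell Ranger 5.0.0; the submitters' processing notes name Cell Ranger 5.0.1, Seurat 3.15 and mm10. Cells under 200 genes or over 20% mitochondrial UMIs were dropped, and the others were typed by the number of marker genes detected (macrophages 6 of 10); cells that met gates of several lineages were left out, which was the only treatment of doublets. The gate minimums, the cluster naming rule, the thinning depth of 2000 UMIs and the promoter motifs were set after marker levels, files or sequences had been seen. Raw counts were summed per library and type, for types with at least 20 cells in every library, and tested with edgeR 4.0.16 (filterByExpr, TMM, robust quasi-likelihood fit, Benjamini-Hochberg over all genes, R 4.3.3). Differences of KO effects were tested by an interaction term with library as a term. Clusters came from Leiden clustering in scanpy 1.11.5.

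Alternatives were DESeq2 1.42.0, total UMIs, no filter, a replicate block, other cell filters, thinned cells, clusters in place of gates and leaving out each library. Added after the data had been seen were clusters weighted equally (limma 3.58.1), the cluster led by monocyte markers left out, and the newer edgeR quasi-likelihood method. Tested on simulated data for macrophages (12724 genes, 200 changed), the main test recovered 86% of changes of 1 and 97% of changes of 2 on the log2 scale, and 14.5% of its calls were false. Named genes are all 8 members, the called partner genes and the 5 chromosome 17 genes with the largest called changes. Of the called partner genes 1 is counted but not reported by name here, and the level of the targeted gene is not reported here. The members and lists were chosen with earlier results of these data known. The planned gate for keratin-positive tumour cells found no group to test.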

Additional observations from a re-analysis of the deposited data

Results flagged for a closer look

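These are the differences between the KO effect on a gene in 1 cell type and its effect in macrophages that passed the interaction test (log2, type minus macrophages; edgeR, default quasi-likelihood method). For H2-Q4 they were -1.483 in CD4 T cells, -1.379 in CD8 T cells, -1.217 in migratory DCs, -1.147 in regulatory T cells and -1.152 in type 2 cDCs. For H2-Q6 they were -1.454 in CD4 T cells, -1.562 in CD8 T cells, -1.666 in migratory DCs, -1.748 in regulatory T cells and -2.074 in type 2 cDCs. For H2-Q7 they were -1.542 in CD4 T cells, -1.599 in CD8 T cells, -1.492 in migratory DCs, -1.662 in regulatory T cells and -1.725 in type 2 cDCs. For H2-T23 they were -1.289 in CD4 T cells, -0.7342 in CD8 T cells, -0.8649 in migratory DCs, -0.7555 in monocytes, -1.317 in regulatory T cells and -1.129 in type 2 cDCs. H2-T22 was the gene with a larger effect, by 0.974 in stromal-marker cells. With the newer method 14 of these 22 did not pass, among them all 8 in CD4 and CD8 T cells. With a library left out, 7 of the 22 moved by more than 1.5 times, all in CD4 or CD8 T cells. In CD4 T cells H2-Q4 ranged from -1.96 to -0.928, H2-Q6 from -2.37 (without WT replicate 2) to -0.446 (without WT replicate 1) and H2-Q7 from -2.09 to -1.01. In CD8 T cells H2-Q4 ranged from -2.08 to -0.931, H2-Q6 from -2.36 to -1.15, H2-Q7 from -2.42 (without WT replicate 2) to -0.797 (without WT replicate 1) and H2-T23 from -1.32 to -0.341.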

How the results depend on the processing

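In macrophages H2-T22, H2-T23 and H2-Q4 stayed called in every alternative run, and the members called numbered 7 in the main analysis, 4 with no filter on low counts, 4 with cells of 2 lineages kept and 5 with any library left out. In the other types 14 pairs were called, against 22 with no filter, 7 with cells thinned to 2000 UMIs (36 pairs tested), 23 with clusters in place of gates (50 tested, no CD4 T class) and 11 to 19 with a library left out. Of the 22 differences from macrophages, 8 passed with the newer edgeR method. With a library left out, 7 of the 22 moved by more than 1.5 times. For this result library is already a term. Partner genes called numbered 16, and 14 to 16 with a library left out. The cause of these shifts was not tested. Directions reversed for genes that were not called: Rfx5 with thinned cells (-0.0127), Rfxap with total UMIs (-0.104) and with a library left out (-0.0587 to 0.112), and Ciita with total UMIs (-0.0350), with clusters weighted equally (-0.0771) and with a library left out (-0.0837 to 0.291).

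Of all genes in macrophages 1054 were called (62.1% higher), against 1650 with DESeq2, 513 with the replicate block, 532 with cells of 2 lineages kept, 370 with clusters weighted equally, 659 without WT replicate 1 and 1678 without KO replicate 2. Total UMIs moved the median of all genes to -0.14 and the share of calls that were higher to 36.0%, and all 7 members stayed called. With the replicate number as a block 6 members, 14 pairs and 14 partner genes were called; replicate 1 of WT and of KO deviated together with a correlation of only 0.06, so the numbers are not taken as pairs. In the simulated CD8 T interaction the default method recovered 12 to 32% of differences of 1 on the log2 scale and the newer method 0 to 12%, so differences that did not pass there say little. Cells of the rarer types, 31 CD8 T cells in WT replicate 1 among them, limit the precision of their values.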
